A study of Mus musculus with 12 samples.

Results

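Olfr543, Olfr544 and Olfr545 are 3 odorant receptor genes that lie side by side on mouse chromosome 7, just before an enhancer called eA. They were taken by symbol from a deposited table of 46297 genes, in which each has 1 row. The table comes from RNA sequencing of 12 samples of whole olfactory mucosa. All came from male mice aged 30 postnatal days, and the labels give their strain as 129S6;C57BL/6J. In the wildtype group of 6 animals the enhancer is intact. In the deletion group of 6 animals the enhancer is removed by a deletion of 912 bp, given as chromosome 7 from 102509701 to 102510612. The labels do not say whether both copies of chromosome 7 carried the deletion, nor which strain's chromosome it was made on. Each animal gave 1 library, and between 13011763 and 23039733 reads per library fell on genes.

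Odorant receptors are membrane proteins that couple to a G protein in the cilia of olfactory sensory neurons. Each neuron expresses a single receptor allele out of a very large family, so the RNA of a receptor gene in whole mucosa depends on how many neurons chose that gene and on how much RNA each of them made. Class I receptors, the older class that is related to the receptors of fish, sit in a cluster on mouse chromosome 7 and are known for responses to acids. Enhancers in and beside receptor clusters promote the choice of the genes near them. Olfr544 is a receptor for azelaic acid, a dicarboxylic acid, and in the mouse it is also expressed outside the nose, for instance in fat and liver. RefSeq lists the older names MOR42-2 for Olfr543, MOR42-3 for Olfr544 and MOR42-1 for Olfr545.

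All 3 genes are read from the minus strand, so their 5′ ends point towards the enhancer. Coordinates are those of GENCODE M21 on GRCm38, the build that the submitters' processing notes name, and the coordinates of the deletion were read on the same build. Olfr545 (ENSMUSG00000044824.8) spans 102491466 to 102499573 and ends 10.1 kb before the deleted interval. Olfr544 (ENSMUSG00000043925.7) spans 102482031 to 102488313, 21.4 kb before it. Olfr543 (ENSMUSG00000044814.6) spans 102476579 to 102481679, 28.0 kb before it. Each coding sequence lies within a single exon, and 0 other annotated genes overlap any of the 3. With class I receptors taken by symbol (the run from Olfr543 to Olfr693, with Olfr33, Olfr78 and the run from Olfr64 to Olfr69 added, 155 rows), these 3 are the only class I genes of the table on that side of the enhancer.

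How far the reads of the 3 genes can be told apart depends on their sequences, which are shown here because they bear on every value that follows. In GENCODE M21 transcripts, the coding sequences of Olfr544 and Olfr545 were 94.8% identical over 948 aligned bases. Olfr543 was 66.7% identical to Olfr544 and 67.2% to Olfr545. Among 135 other class I coding sequences the next closest were Olfr557 at 63.0% to Olfr543, Olfr682-ps1 at 62.6% to Olfr544 and Olfr680-ps1 at 61.7% to Olfr545. A stretch of 64 coding bases from each gene (chr7:102477460-102477523, chr7:102484713-102484776 and chr7:102494368-102494431, GRCm38, minus strand) holds the longest run, 24 bases in capitals, that Olfr543 shares with either of the others.
Olfr543: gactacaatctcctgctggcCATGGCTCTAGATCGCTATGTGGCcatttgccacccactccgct
Olfr544: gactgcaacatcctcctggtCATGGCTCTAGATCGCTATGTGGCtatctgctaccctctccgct
Olfr545: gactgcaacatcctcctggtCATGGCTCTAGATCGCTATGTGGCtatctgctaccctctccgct

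Over these 64 bases the last pair is the same letter for letter, and the longest run that Olfr544 and Olfr545 share is 218 bases, from coding base 10 to 227. They differ at 49 aligned coding bases. The window of 60 bases with the most differences, 13 in capitals, lies at coding bases 599 to 658 (chr7:102484461-102484520 and chr7:102494116-102494175, minus strand).
Olfr544: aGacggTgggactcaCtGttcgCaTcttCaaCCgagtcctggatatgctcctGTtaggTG
Olfr545: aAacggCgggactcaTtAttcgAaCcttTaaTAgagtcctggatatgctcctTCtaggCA

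Runs of 50 bases were used as a measure of how much of each gene is its own. None of the 1407 distinct 50-base runs of the Olfr543 transcripts occurs in a transcript of another gene. For Olfr544 it was 352 of 3221 runs (10.9%), shared with 1 other receptor gene. For Olfr545 it was 391 of 3494 (11.2%), shared with transcripts of 248 other genes, 15 of them receptors. The sources used here give neither the read length nor the handling of reads with several matches. The counts of Olfr544 and Olfr545 are therefore less certain than those of Olfr543, and the 2 may not be fully separate measurements.

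The upstream sequence could be shown for Olfr544 only, because the RefSeq start of that gene lies 6 bases from the GENCODE start, whereas the GENCODE starts of Olfr543 and Olfr545 lie 3777 and 4800 bases upstream of the RefSeq ones. The 250 bases before the RefSeq start of Olfr544 (RefSeq, GRCm38.p6, chr7:102488308-102488557, minus strand) are printed with the match to a searched motif in capitals.
Olfr544: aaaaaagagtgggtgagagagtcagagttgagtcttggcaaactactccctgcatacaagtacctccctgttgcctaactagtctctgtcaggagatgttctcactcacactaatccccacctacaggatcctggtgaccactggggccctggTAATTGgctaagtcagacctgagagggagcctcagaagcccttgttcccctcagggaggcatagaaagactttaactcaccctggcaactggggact

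Both strands were searched for 3 homeodomain-type motifs that share their first 4 letters, namely TAATTA, then TAATGA, then TAATTG, and for the O/E-type motif CCCNNGGG. Olfr544 held 1 match, to TAATTG, beginning 97 bases before the start. Of 32851 RefSeq upstream windows of the same length 7.17% held TAATTG, as did 22.6% of 948 receptor windows and 20.2% of 109 class I windows. TAATTA was found in 4.84%, TAATGA in 8.59% and CCCNNGGG in 11.8% of all windows. In the same order the shares were 18.0%, 25.2% and 2.74% of receptor windows, and 14.7%, 22.9% and 2.75% of class I windows. All windows rest on RefSeq starts, which can lie far from the GENCODE starts, as for Olfr543 and Olfr545.

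Without the enhancer all 3 genes were lower, by 10.6-fold for Olfr543, 13.01-fold for Olfr544 and 28.8-fold for Olfr545 as ratios of the group means. The size for Olfr545 rests on 6 reads in the deletion group, 4 of them in library 6, and without that library the ratio was 71.0. In every case each wildtype library stood above each deletion library. Values are normalized counts, that is, the authors' read counts divided by a size factor of the library. The 3 genes together supplied 1.72% ± 0.26 (SD, n = 6) of the summed class I signal in wildtype and 0.206% ± 0.082 in the deletion. In bulk tissue, fewer neurons that express a gene and less RNA per neuron cannot be told apart.

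**Figure D1:**
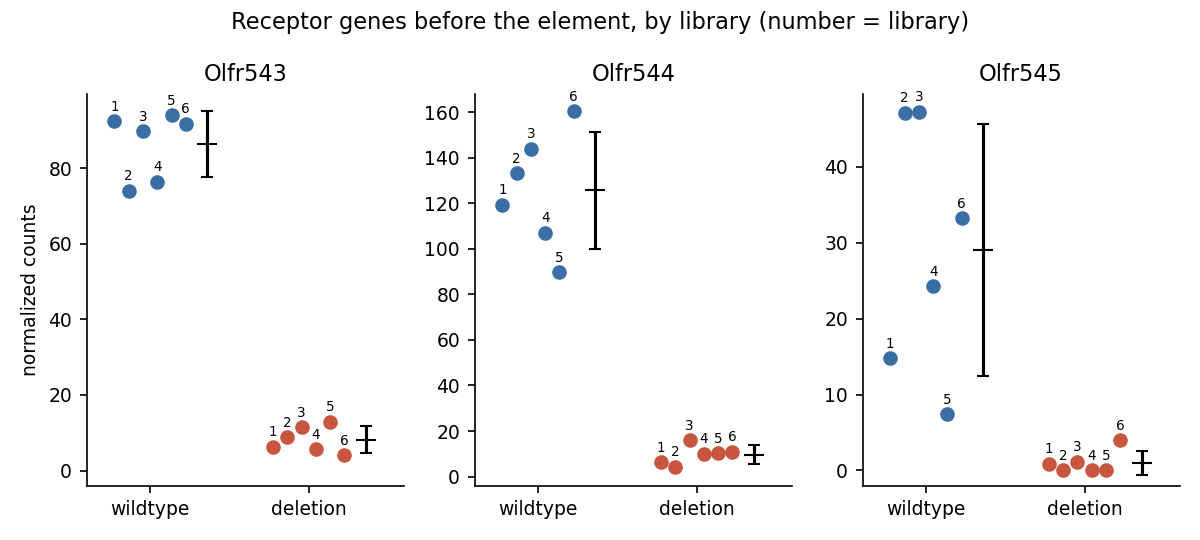
Normalized counts of Olfr543, Olfr544 and Olfr545 (y axis, a separate scale for each gene) in the 6 wildtype and 6 deletion libraries, numbered as in the labels. Points are libraries, and the bar at the right of each group is its mean ± SD. The lowest wildtype values, 74.1, 89.8 and 7.39, lie above the highest deletion values, 12.97, 15.99 and 3.99.

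Olfr543 had 92.5, 74.1, 89.9, 76.4, 94.0 and 91.8 normalized counts in wildtype libraries 1 to 6, a mean of 86.4 ± 8.80. In deletion libraries 1 to 6 it had 6.31, 8.79, 11.4, 5.61, 12.97 and 3.99, a mean of 8.18 ± 3.51. The wildtype values lay within a factor of 1.27 of each other, and the highest deletion value, 12.97, was far below the lowest wildtype value, 74.1. The log2 change, deletion over wildtype, was -3.34 ± 0.24 (SE, 95% interval -3.84 to -2.83), and limma's adjusted p was 8.95e-07 over all 19373 genes tested.

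Olfr544, the azelaic acid receptor, had the most counts of the 3. Wildtype libraries 1 to 6 held 119, 133, 144, 107, 89.8 and 160 normalized counts, a mean of 126 ± 25.6. Deletion libraries 1 to 6 held 6.31, 4.39, 15.99, 10.1, 10.2 and 10.98, a mean of 9.66 ± 4.03. Libraries 6 and 3 were highest in wildtype and library 3 in the deletion, and the gap between the groups was far wider than the spread within either. The log2 change was -3.64 ± 0.25 (95% interval -4.17 to -3.11), and limma's adjusted p was 6.31e-07.

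Olfr545, the gene closest to the enhancer and nearly the same in coding sequence as Olfr544, was the lowest and the most variable. It had 14.8, 47.1, 47.2, 24.3, 7.39 and 33.2 normalized counts in wildtype libraries 1 to 6, a mean of 29.0 ± 16.6. In the deletion it had 0.902, 0, 1.14, 0, 0 and 3.99, a mean of 1.01 ± 1.55. Libraries 2 and 3 were highest in wildtype and library 5 was the lowest, yet library 5 still lay above every deletion library. The log2 change was -3.94 ± 0.53 (95% interval -5.06 to -2.82), and limma's adjusted p was 0.000764. Its mean over all libraries, 15.01, passed the minimum of 10 for testing only through the wildtype group. The same holds for Olfr543 and Olfr544, whose deletion means of 8.18 and 9.66 also lay under 10.

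The reads behind Olfr545 were few. Recovered from the normalized values, 172 reads fell on it in the 6 wildtype libraries together (exact Poisson 95% interval 147 to 200) and 6 in the deletion libraries (2.20 to 13.1), of which 4 came from library 6. Deletion libraries 2, 4 and 5 had 0 reads, which allows up to 3 reads, or 2.64, 3.36 and 2.78 normalized counts. Olfr543 had 534 reads in wildtype and 50 in the deletion, and Olfr544 had 779 and 57. These intervals and limits cover counting error only.

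At an adjusted p under 5% by limma all 3 genes were called lower. Of all 19373 genes tested 66 were called lower (0.341%), and among the 116 class I receptors tested 63 were (54.3%), so a lower call was common in the class. Groups without any overlap, wildtype above deletion, were found for 0.444% of all genes tested and 56.0% of class I receptors tested. By size of log2 change Olfr545 ranked 4, Olfr544 ranked 7 and Olfr543 ranked 9 from the most negative of the 116, whose median was -0.92. With a pseudocount of 5 in place of 1 the ranks were 14, 4 and 6, so the place of Olfr545 before the others depends on the pseudocount. By wildtype level Olfr545 ranked 110, Olfr544 ranked 41 and Olfr543 ranked 63 from the highest.

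The comparison with the rest of the class was made directly, by scaling every gene in each library to the summed signal of the other 152 class I receptors. On that scale the log2 change was -2.78 ± 0.25 for Olfr543 (SE, limma adjusted p 1.58e-06), -3.08 ± 0.28 for Olfr544 (adjusted p 1.7e-06) and -3.38 ± 0.55 for Olfr545 (adjusted p 0.0001). The 3 genes thus fell further than the summed signal of their class. On this scale 0.397% of all genes and 50.9% of class I receptors tested were called lower, and the median class I change was -0.36. The class I sum fell in the deletion, so this scale adds the same amount to the log2 change of every gene. Rrm1, a neighbouring gene outside the class, moved from 0.062 to 0.62 (limma adjusted p 0.0001). The share of all genes is therefore no background here, and adjusted p-values on this scale are not comparable with those of the first fit. The sum is weighted towards the class I genes with the most counts.

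The 3 nearest class I receptors tested on the other side of the enhancer changed less, though only Olfr547 lies about as near to it as the 3 genes do. Olfr547, which begins 24.1 kb after the deleted interval, averaged 14.97 ± 6.13 normalized counts in the wildtype group and 9.44 ± 4.80 without the enhancer. Its log2 change of -0.61 ± 0.38 (SE) did not pass the test (limma adjusted p 0.78). The libraries of the groups overlapped, at 4.61 to 22.5 in wildtype and 3.99 to 17.9 in the deletion. By wildtype level Olfr547 ranked 115 from the highest of the 116 class I receptors tested. Olfr549, at 39.3 kb, had 240 ± 13.5 and 130 ± 24.5. Olfr550, at 60.8 kb, had 79.9 ± 18.2 and 22.1 ± 6.68. All 9 differences in log2 change between a gene before and a gene after the enhancer were negative, from -3.33 for Olfr545 against Olfr547 to -1.51 for Olfr543 against Olfr550. The exact permutation tests over libraries (two-sided, over all assignments of the libraries to groups of 6 and 6, added with the values known) gave adjusted p from 0.00325 to 0.013 over the 9 pairs. For Olfr543 and Olfr544 the unadjusted exact p was 0.002165 against each of the 3, the smallest that these assignments allow.

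Of the 9, the weakest was Olfr545 against Olfr550, with a difference of -2.12 (95% interval -3.47 to -0.74). It no longer passed with a pseudocount of 5 (-0.71, exact permutation adjusted p 0.126) or in the 8 libraries with little signal of the satellite gene Gm10800 (-2.16, adjusted p 0.0571). Genes farther out on that side also fell steeply. Olfr551 at 72.9 kb went from 43.0 ± 11.9 to 2.03 ± 1.42 normalized counts. Olfr552 at 87.2 kb, which was 62.2% identical to Olfr544 in coding sequence, averaged 82.8 ± 21.5 in wildtype and 2.63 ± 3.32 without the enhancer. Its log2 change of -5.07 was the most negative of the 116, so steep falls occurred on both sides of the enhancer. They were not limited to genes near it. Olfr657 at 2114 kb (-4.81) and Olfr582 at 527 kb (-4.38) ranked 2 and 3, before all of Olfr543, Olfr544 and Olfr545. The most positive of the 116 was Olfr653 at 2067 kb, with 1.03. Of the class I genes closest in coding sequence to Olfr543, Olfr557 had a log2 change of -2.80 and Olfr675 one of -0.45 that did not pass the test.

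**Figure D2:**
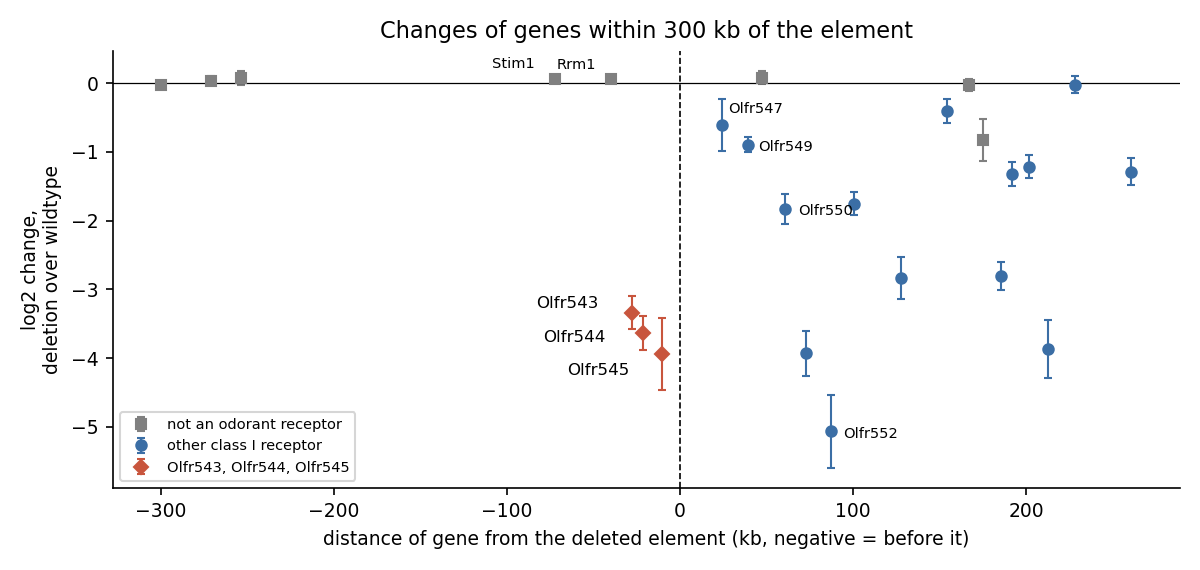
Log2 change (deletion over wildtype, y axis, bars are SE) of tested genes near the deleted element against their distance from it (x axis in kb, negative before it). Genes farther out are not drawn. Olfr543, Olfr544 and Olfr545 lie between -3.34 and -3.94, whereas Rrm1 and Stim1 on the same side lie near 0 and class I receptors on the other side range down to -5.07.

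The genes that flank the 3 receptors on the side away from the enhancer did not pass the test. Rrm1, which encodes the large subunit of ribonucleotide reductase and ends 39.9 kb before the deleted interval, averaged 1009 ± 57.7 normalized counts with the enhancer and 1052 ± 28.5 without it, a log2 change of 0.062 ± 0.049 (limma adjusted p 0.803). Stim1 at 72.4 kb, which senses calcium in the endoplasmic reticulum, had a log2 change of 0.064 ± 0.055. The log2 change was 0.077 ± 0.11 for Rhog, a small GTPase at 254 kb, and 0.038 ± 0.065 for Pgap2, a gene of GPI anchor maturation at 271 kb. After the enhancer Trim21, an antibody receptor of the cytosol, had 0.080 ± 0.094 and Trim68 -0.030 ± 0.087. The estimates for Pgap2, Trim21 and Trim68 changed sign in 1 alternative each. Of 15 non-receptor genes tested within 0.5 Mb, 12 of them on the side of the 3 receptors, limma called 0, edgeR 0 and DESeq2 0 (of 23 without a filter), and 1 had an unadjusted p under 0.05 in limma. With 72 of all 19373 genes tested called by limma, 0 of 15 is near the share over all genes.

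No difference between the 3 genes in the size of their fall passed the test. The log2 change of Olfr543 was smaller than that of Olfr544 by 0.30 (95% interval of the difference -0.45 to 1.06) and smaller than that of Olfr545 by 0.60 (-0.996 to 2.09). Between Olfr544 and Olfr545 the difference was 0.30 (-0.81 to 1.38). The exact permutation p, two-sided over the same assignments, was 0.407, 0.398 and 0.53, and 0.53 for each after adjustment over the 3 pairs. The intervals leave room for differences of more than 1 on the log2 scale. With a pseudocount of 5 both differences that involve Olfr545 changed sign, to -0.47 and -0.82, so their order is not settled at this depth.

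The order of the levels per length depended on which length was used. Divided by the annotated exon length (1456 bases for Olfr543, 3270 for Olfr544 and 3496 for Olfr545), the wildtype level was 59.4 ± 6.04 normalized counts per kb for Olfr543, 38.4 ± 7.83 for Olfr544 and 8.30 ± 4.74 for Olfr545. Their ranges over the 6 wildtype libraries did not overlap, at 50.9 to 64.5, 27.4 to 49.1 and 2.11 to 13.5 per kb. In the deletion the levels per kb were 5.62 ± 2.41, 2.95 ± 1.23 and 0.288 ± 0.443. There the ranges of Olfr543 and Olfr544 overlapped, and those of Olfr544 (1.34 to 4.89) and Olfr545 (0 to 1.14) did not. Divided by coding length instead (1008, 1002 and 948 bases), the wildtype level was 85.7 ± 8.73 normalized counts per kb for Olfr543, 125 ± 25.6 for Olfr544 and 30.6 ± 17.5 for Olfr545. On that scale the ranges of Olfr543 (73.5 to 93.2) and Olfr544 (89.6 to 160) overlapped, with the higher mean in Olfr544. Olfr545 was the lowest of the 3 on both scales.

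Variation among wildtype libraries differed between the genes as a description. The coefficient of variation over the 6 wildtype libraries was 10.2% for Olfr543, where counting error at the mean read number alone gives 10.6%. It was 20.4% for Olfr544, against 8.78% from counting, and 57.1% for Olfr545, against 18.7%. The highest wildtype library exceeded the lowest by 1.27 times for Olfr543, 1.79 times for Olfr544 and 6.39 times for Olfr545. Libraries 2, 3 and 6 were the highest in wildtype for both Olfr544 and Olfr545, and library 5 was the lowest for both, whereas library 5 was the highest for Olfr543. As deviations from the group means over the 12 libraries, Pearson's r was 0.51 between Olfr544 and Olfr545, 0.10 between Olfr543 and Olfr544 and -0.46 between Olfr543 and Olfr545, given as a description. Olfr544 and Olfr545 share sequence, so their values can share reads.

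The libraries also differed in the share of reads from Gm10800, a predicted gene in satellite sequence. Its share was 7.80% and 7.01% in wildtype libraries 2 and 3, which were the highest for Olfr545, and 4.50% and 2.78% in deletion libraries 3 and 6, which held 5 of the 6 deletion reads of Olfr545. The other wildtype libraries had 0.079% to 0.885% and the other deletion libraries 0.0013% to 0.0103%. In the 4 wildtype and 4 deletion libraries below 1%, Olfr545 averaged 19.9 and 0.225 normalized counts, a log2 change of -3.97 ± 0.49 (limma adjusted p 0.00351). Olfr543 averaged 88.7 and 8.42 there, and Olfr544 119 and 7.75, with log2 changes of -3.31 and -3.81. When log2 Gm10800 was added as a covariate the changes were -3.36 for Olfr543, -3.33 for Olfr544 and -3.26 for Olfr545 (adjusted p 0.00863). All 3 genes were thus called lower with and without the satellite-rich libraries. Among the libraries below 1%, every wildtype library still had a larger Gm10800 share than every deletion library. Neither setting therefore fully separates the satellite share from the genotype.

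**Figure D3:**
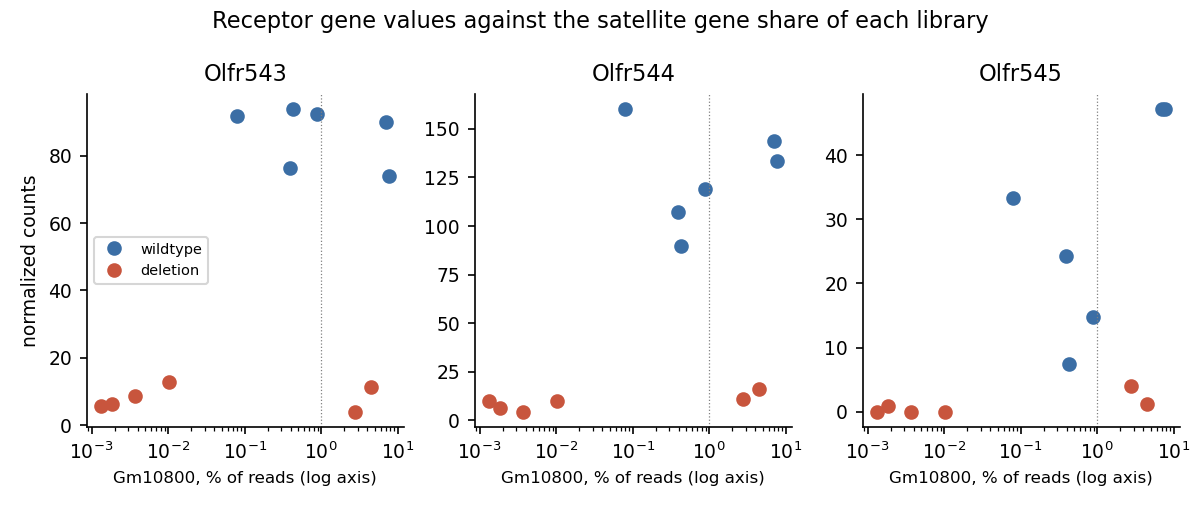
Normalized counts of Olfr543, Olfr544 and Olfr545 (y axes) in each library against the percentage of its reads from the satellite gene Gm10800 (x axis, log scale, dotted line at 1%). Wildtype and deletion libraries stay apart at low and at high percentages, and the wildtype libraries with 7.80% and 7.01% have the highest Olfr545 values, 47.1 and 47.2.

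Receptor genes whose pattern was most like that of the 3 were looked for among all genes tested, by Pearson's r of log2(value + 1) over the 12 libraries. For Olfr543 these were Olfr568 (r 0.989), Olfr569 (0.977) and Olfr610 (0.971). For Olfr544 they were Olfr678 (0.986), Olfr642 (0.978) and Olfr559 (0.968), and for Olfr545 they were Olfr678 (0.952), Olfr544 (0.937) and Olfr578 (0.930). All of these are class I genes that fell in the deletion, at distances from 21.4 kb to 2554 kb, and the 2 group levels make up most of such an r. The log2 change was -0.86 for Olfr610 and -3.87 for Olfr559, so a like pattern across libraries did not mean a like size of change.

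With the group levels removed, none of the genes most like the 3 lay on chromosome 7. They were Znrd1as (0.889), Olfr1016 (0.888) and Dnajc1 (0.877) for Olfr543, Irx3 (0.914), Wnt3a (0.912) and AC157667.1 (0.886) for Olfr544, and Tdrd5 (0.927), RP23-370J16.1 (0.915) and Sf3a2 (0.907) for Olfr545. Each was picked as the highest of all other genes tested over 12 libraries, which makes r large by selection.

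The machinery that receptor neurons share was measured in the same libraries. Of 12 genes of receptor signalling, among them the G protein gene Gnal (log2 change 0.085 ± 0.075), limma called 0, with 1 at an unadjusted p under 0.05 and 11 positive estimates. Of 3 genes of receptor transport, among them Rtp1 (0.13 ± 0.069), and of 12 regulators of receptor choice, among them Bcl11b (0.17 ± 0.082), 0 were called and 0 had an unadjusted p under 0.05. The labelled tissue showed its defining markers at high level: Omp, the marker of mature olfactory neurons, averaged 60400.3 ± 6696 normalized counts with the enhancer and 63115 ± 5927 without it. Of 8 mature neuron markers 0 were called, and their median log2 change was 0.080. Several of these markers, Gnal and Rtp1 among them, are also on the lists of signalling and transport, so these lists are not separate results.

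Markers of the other cell types did not pass either. The 17 lists, with those of receptor machinery and mature neurons included, held 70 genes tested, some of them on several lists. Of the 70 limma called 0, edgeR 0 and DESeq2 0, with 6 genes at an unadjusted p under 0.05 in limma. Limma called 72 of all 19373 genes tested, so 0 of 70 is near the share over all genes. The summed level of all 17 lists overlapped between the groups. The median log2 change was -0.033 for immature neurons, 0.14 for neuronal progenitors, 0.0076 for horizontal basal cells, 0.11 for supporting cells, 0.102 for Bowman's gland, 0.034 for microvillar cells, -0.017 for ciliated respiratory cells and 0.079 for ensheathing glia. It was 0.063 for immune cells, 0.21 for endothelium, -0.14 for erythroid cells and 0.00031 for the ventral zone, against 0.0087 over all genes tested. The 4 Bowman's gland genes ran from -0.29 to 1.65. Their summed level ran from 10325 to 17561 normalized counts in wildtype and from 8784 to 30959 in the deletion. Class I receptors are known to be expressed mainly in the dorsal zone. Both dorsal zone markers had negative estimates (median -0.13), and Nqo1 had a log2 change of -0.22 ± 0.105 with an adjusted p of 0.744. The summed dorsal zone level ran from 18275 to 25989 normalized counts in wildtype and from 15674 to 22865 in the deletion. These ranges overlapped, and whether dorsal zone content has a part in the values of the 3 receptors was not tested.

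In the authors' deposited table the same comparison is given as a log2 fold change that is positive where wildtype is higher. Whether it was shrunken is not stated there. Olfr543 stands at 1.22, Olfr544 at 1.21 and Olfr545 at 0.26 in the authors' deposited table. By p-value they rank 3, 2 and 60 in the authors' deposited table, which calls 0.378% of 21159 genes higher in wildtype at an adjusted p under 5%. The log2 changes (deletion over wildtype) from DESeq2, without shrinkage, on recovered reads were -3.40, -3.73 and -4.87, and these are larger in size, and in another order, than what the authors' deposited table gives.

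**Figure D4:**
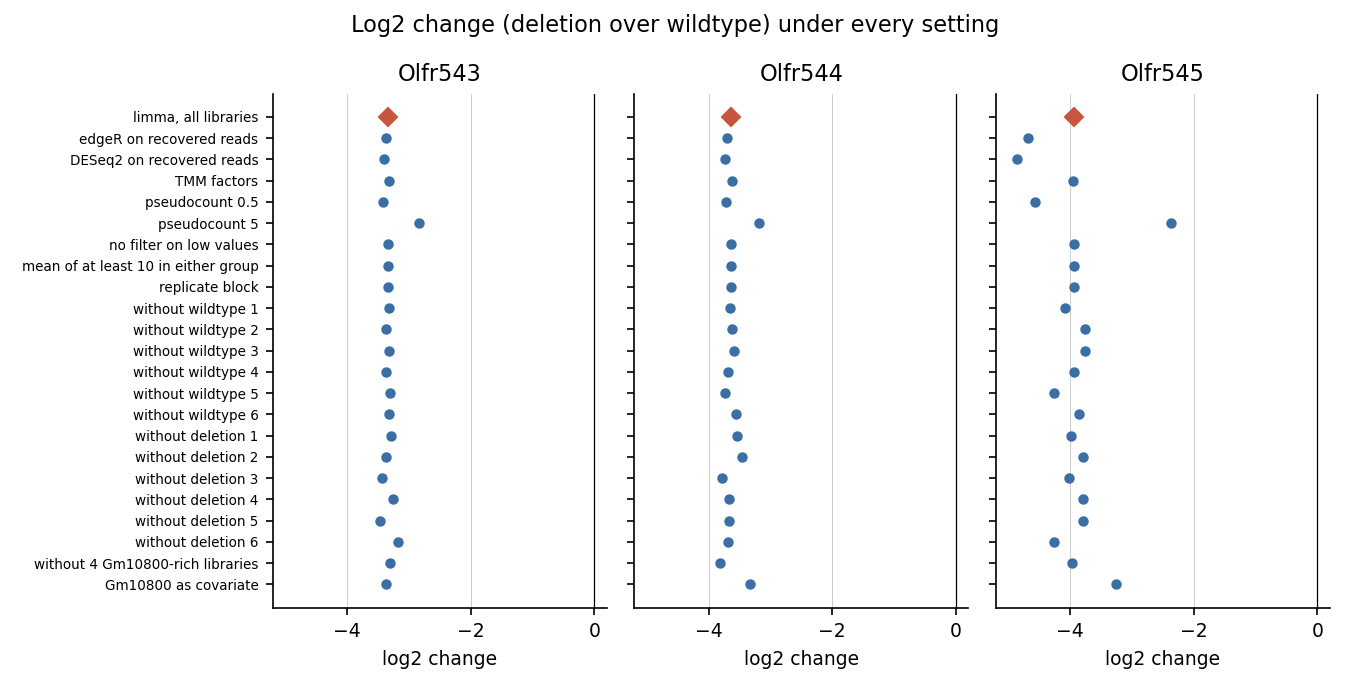
Log2 change (deletion over wildtype, x axis) of Olfr543, Olfr544 and Olfr545 under each setting tried (y axis); the diamond is limma on all 12 libraries and the circles are the alternatives. Values run from -3.48 to -2.83 for Olfr543, from -3.81 to -3.18 for Olfr544 and from -4.87 to -2.36 for Olfr545.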

How the data were processed

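Each of 12 samples gave 1 total RNA library, ribodepleted and stranded per the labels' protocols. Tools and build in the submitters' processing notes are GRCm38.p6, STAR 2.6.0 and DESeq2. The sources used here give no counter, annotation or strand setting. Per the file headers and the values, the authors deposited normalized counts, a signal equal to reads divided by a library size factor. The deposited comparison holds a log2 fold change with its SE, a statistic (a score) and p-values. Reads were recovered as whole multiples of what 1 read is worth (at least 99.985% of values whole within 0.01). The number of library columns not matched to a sample was 0, and 0 pairs of libraries were identical.

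Log2(value + 1) of genes averaging at least 10 was tested with limma 3.58.1, its variance prior following the mean, with Benjamini-Hochberg adjustment at 5%. Fold changes on that scale understate the change of low genes. The exact permutation tests used every assignment of the libraries to groups of 6 and 6, and their 95% intervals come from inverting the test. Count tests on recovered reads used edgeR 4.0.16 (68 genes called, against 72) and DESeq2 1.42.0. These ran in R 4.3.3, and tables were made in Python 3.11.15 with pandas 2.3.3. The limma, edgeR and DESeq2 tests without block, covariate or class I scaling were tested on simulated data. Positions and transcripts are from GENCODE M21, matched by identifier for 99.8% of rows, and the version of each of the 3 identifiers matched. With no protein table at hand, likeness of sequence was measured on coding bases.

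The 3 genes and the gene lists were chosen with earlier results of these data known. Named besides them are the nearest 3 receptors and 2 non-receptor genes after the enhancer and 4 before it, the genes with the closest pattern or coding sequence, and the first gene of the lists tied to receptor neurons (the other lists are given by their medians). Olfr551, Olfr582, Olfr653 and Olfr657 were named after their values were seen and were left out of the search for outlying libraries. The design text gives 6 control and 6 deletion animals of matched age, so p-values measure the spread between animals. Alternatives are given in the closing section.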

Additional observations from a re-analysis of the deposited data

Results flagged for a closer look

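Among 72 groups of 6 libraries of the named genes, 3 had 1 library far from the rest, with a gap to the next value wider than 0.625 of the whole range. By chance about 1 in 20 groups would be picked out this way. Olfr545 stood at 3.99 normalized counts (4 reads) in deletion library 6, against 1.14 in the next and 0 in the lowest. Without that library the log2 change of Olfr545 was -4.26. Olfr549 stood at 267 in wildtype library 4, against 239 in the next. AC157667.1 stood at 155 in deletion library 2, against 214 in the next lowest.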

How the results depend on the processing

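Olfr543, Olfr544 and Olfr545 remained lower and past the threshold in 22 of 22 alternatives each, and in 19 of 19 relative to the other class I receptors. These were count tests, TMM factors, other pseudocounts and filters, the Gm10800 settings, the replicate block and leaving out each library. Leaving out 1 library gave log2 changes from -3.48 to -3.18, -3.79 to -3.46 and -4.26 to -3.76. The counts ran from 60 to 88 genes called, 43 to 69 class I receptors called lower (43 without the 4 satellite-rich libraries, which leaves 8) and 0 non-receptor neighbours. With a pseudocount of 5 the difference between Olfr543 and Olfr545 reversed to -0.47 and that between Olfr544 and Olfr545 to -0.82. Among single genes, Trim68 ran from -0.074 to 0.026 when 1 library was left out (reversed without deletion library 5), Pgap2 reversed to -0.011 and Trim21 to -1.79e-05 without the satellite-rich libraries, and Omp to -0.025 with Gm10800 as covariate; the cause was not tested.

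Replicate numbers are shared between the groups but the labels do not tie them to litters or days. Same-numbered libraries correlated over 0.1 in 2 of 6 pairs (from -0.147 to 0.358), and 1 of 6 correlated best with its own number. The replicate block gave 71 calls and 55 class I receptors lower, with log2 changes of -3.34, -3.64 and -3.94 for the 3 genes. With coding in place of exon length, the wildtype level per kb of Olfr543 minus that of Olfr544 reversed from 20.9 to -39.6. Depth limits Olfr545 most: its ratio of group means ran from 24.0 to 71.0 when 1 library was left out, and its log2 change ran from -4.87 (DESeq2) to -2.36 (pseudocount 5).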
